A study of Homo sapiens with 6 samples.

Results

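The 10 genes described here encode parts of the complement system and its regulators. They were picked by gene name from the count table: the protease genes C1R and C1S, their relative C1RL, the central component C3, factors B and D (CFB and CFD), C1 inhibitor (SERPING1), and the surface regulators CD46, CD55 and CD59. All 10 were found among 58735 genes, and 9 of them were among the 15530 genes with enough counts to be tested. The libraries came from HuCCT1, an established human cholangiocarcinoma (bile duct cancer) cell line. The siC1QBP group received a small interfering RNA against C1QBP, and the siNC group received the control siRNA. Each group had 3 libraries of total RNA, and the labels do not say whether these were separate cultures. The p-values therefore reflect only how far these samples spread, and that spread may be technical. The siRNA sequence, its dose and the harvest time were not analysed here, and both groups are of this cell line only.

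Complement is a chain of plasma and surface proteins in which each protease activates the next. In the classical pathway C1q recognises a target, and the proteases C1r and C1s bound to it cleave C4 and C2 into an enzyme that splits C3. In the alternative pathway, C3b binds factor B, and factor D cuts factor B to form another enzyme that splits C3. C1 inhibitor shuts off C1r and C1s. The surface proteins CD46, CD55 and CD59 protect a cell's own membrane. C1QBP, the target of the siRNA, took its name from binding to C1q, and most of the protein lies in mitochondria. Epithelial cells, including those of the bile ducts, can make several of these proteins themselves.

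The upstream sequences of CFB and C1RL, which were higher in siC1QBP libraries, and of CFD, which was lower, are shown so that the genes can be compared at the level of the promoter. Each line holds the 250 bases before the transcription start in RefSeq (GRCh38.p14), 5′ to 3′ along the gene: CFB at chr6:31945845-31946094 on the plus strand, C1RL at chr12:7109215-7109464 on the minus strand, and CFD at chr19:859414-859663 on the plus strand. Capitals mark matches to the motifs listed after the sequences.
CFB: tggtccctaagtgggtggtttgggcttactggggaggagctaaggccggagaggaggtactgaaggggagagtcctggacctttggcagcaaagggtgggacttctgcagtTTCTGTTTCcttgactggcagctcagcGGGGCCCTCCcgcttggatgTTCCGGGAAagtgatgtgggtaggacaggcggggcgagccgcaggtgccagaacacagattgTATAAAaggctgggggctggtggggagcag
C1RL: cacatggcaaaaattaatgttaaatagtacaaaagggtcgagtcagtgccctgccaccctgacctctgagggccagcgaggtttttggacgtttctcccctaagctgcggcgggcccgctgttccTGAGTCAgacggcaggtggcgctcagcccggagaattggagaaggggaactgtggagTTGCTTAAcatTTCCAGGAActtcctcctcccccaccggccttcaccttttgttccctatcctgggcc
CFD: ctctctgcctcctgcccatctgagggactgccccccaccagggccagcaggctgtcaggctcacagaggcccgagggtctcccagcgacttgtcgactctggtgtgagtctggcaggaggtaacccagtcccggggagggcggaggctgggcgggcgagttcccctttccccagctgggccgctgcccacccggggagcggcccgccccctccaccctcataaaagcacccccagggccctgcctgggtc

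Both strands of each window were searched for 7 motifs: the STAT element GAS (TTCNNNGAA, the same on both strands), the interferon element ISRE (GAAANNGAA), AP-1 (TGANTCA), C/EBP (TTGCNNAA), the E-box (CACGTG), the TATA box (TATAAA) and the kappa B motif of NF-kB. In CFB, GAS was matched by TTCCGGGAA starting 92 bases before the transcription start, ISRE at 139 bases, kappa B at 112 bases and the TATA box at 30 bases. In C1RL, AP-1 was matched at 125 bases, C/EBP at 68 bases and GAS, as TTCCAGGAA, at 57 bases. None of the 7 motifs was matched in the CFD window. The table of promoters held windows for 7 of the 10 genes, and 4 of the 7 (C1R, C1RL, CD59 and CFB) had a GAS match in at least 1 window. These 7 genes had 12 windows between them, and CD59, with 4, had its matches in a pair of overlapping windows that hold the same TTCTCAGAA. A gene with more windows has more chances of a match, so the shares of genes that follow are no like-for-like comparison. Over all 27303 genes in that table, 8.09% had a GAS match, 8.41% an ISRE match, 8.06% AP-1, 14.5% kappa B, 11.0% C/EBP, 7.73% an E-box and 13.1% a TATA box. Matches to the motifs were thus found in CFB and C1RL, which rose, and in C1R and CD59, which did not pass. C1S and C3, which also rose, had no window and were not searched. No match was found in CFD, which fell, or in the windows of CD46 and CD55, which did not pass. Whether the matches bear on the changes was not tested.

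C1QBP itself (ENSG00000108561) stood at 57.6 to 60.0 CPM (reads of a gene per 1e+06 counted, on scaled library sizes) in siC1QBP libraries and at 175 to 185 CPM in siNC libraries, a log2 fold change of -1.61 (SE 0.05; edgeR adjusted p = 1.39e-12). Total counts ranged from 17122252 to 20416243 per library, so a gene with no count could still hold up to 0.149 to 0.173 CPM, the level of 3 counts (counting error only). The siC1QBP libraries were not equally alike: comparing counts over genes, chi-square divided by its degrees of freedom was 2.09 between replicates 2 and 3 but 6.66 and 6.77 where replicate 1 was involved. Markers of biliary epithelium were plentiful, their sum over 8 genes being 7764 to 8137 CPM in siC1QBP and at 8575 to 9067 CPM in siNC libraries. Of the 8, 2 fell (KRT7 at a log2 fold change of -0.26 and KRT19 at -0.19; edgeR adjusted p = 0.000214 and 0.00862) and 6 did not pass, among them CDH1 at 0.14 and SOX9 at 0.14. Over all tested genes, 7.84% were lower by the same test. Mitochondrial genes took 4.20% to 4.799% of the counts in siC1QBP against 3.66% to 3.88% in siNC libraries, and 25001 to 25506 against 23395 to 23841 genes were detected. The part of these library differences in the results was not tested. Summed hepatocyte markers were at most 1.58 CPM, those of leukocytes at most 10.2 CPM and those of fibroblasts and endothelium at most 15.6 CPM in any library; of their 24 genes, 6 passed the filter and none was called, beside 14.3% of all tested genes. PTPRC, the pan-leukocyte marker, averaged 0.0755 CPM in siC1QBP and at 0.0695 CPM in siNC libraries, and ALB, the hepatocyte marker, 0.0175 and 0 CPM. Not every marker in these lists was that faint. The leukocyte markers CD14 and CSF1R had siNC means of 6.39 and 2.55 CPM, against 6.28 and 2.33 CPM after siC1QBP. LUM, from the fibroblast and endothelium list, had means of 7.56 CPM (siNC) and 9.73 CPM (siC1QBP). None of these was called (edgeR adjusted p = 0.933, 0.755 and 0.102). Which cells these reads came from was not tested. In such bulk samples, fewer cells of a type and less RNA per cell cannot be told apart.

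In siC1QBP libraries, 4 of the complement genes rose: C1S by 48.0%, CFB by 38.2%, C1RL by 26.9% and C3 by 11.3%. A single gene, CFD, fell to 0.729 of its control level. The surface regulators CD46, CD55 and CD59 and the protease gene C1R did not pass the test, and SERPING1 was nearly undetected. A gene was called when its edgeR quasi-likelihood adjusted p (Benjamini-Hochberg over all tested genes) was under 0.05. By that rule 5 of 9 tested members were called, while 14.3% of all tested genes were. Of the members, 4 were higher, against 6.47% of all tested genes, and 1 was lower, against 7.84%. These shares are descriptive only: the members were chosen with earlier results of these data known, and C1S, C1R and C1RL lie side by side. The median log2 fold change of the 9 was 0.15, beside 0.00255 over all tested genes. For 6 members, the 3 siC1QBP and 3 siNC libraries did not overlap in CPM, as was true of 32.6% of all tested genes. The two-sided exact permutation test gave p = 0.1 for each of the 6, the smallest value 3 against 3 libraries allow. With library size as sole scaling, 1253 of all tested genes were higher and 908 lower, against 1005 and 1217 here, and the members stayed at 4 higher and 1 lower. Leaving out siNC replicate 2 brought the called members down to 2 (C1S and C1RL), and leaving out siNC replicate 3 to 3.

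**Figure D1:**
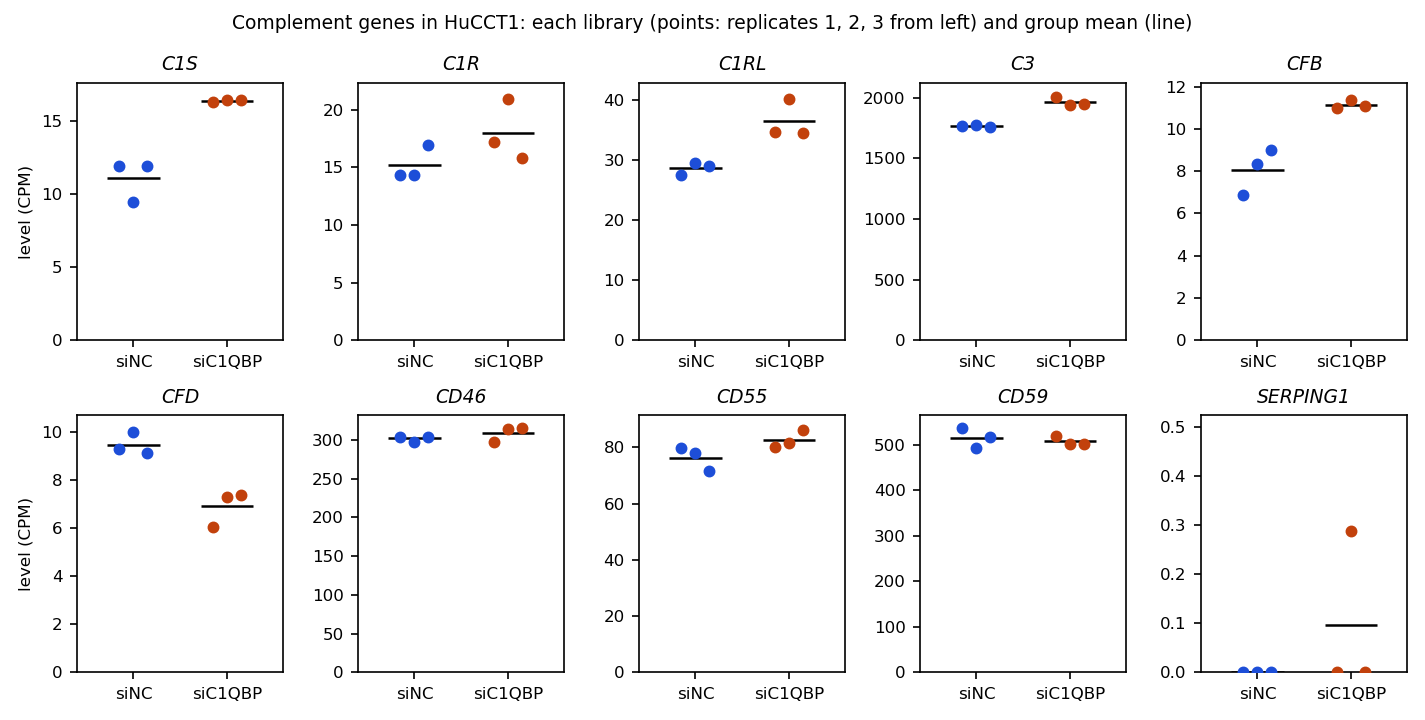
Level of each of the 10 complement genes in CPM (y axis, starting at 0) in every library; points are replicates 1, 2 and 3 from left to right, siNC in blue and siC1QBP in orange, and the line is the group mean. C1S, C1RL, C3, CFB and CD55 lie higher in all 3 siC1QBP libraries than in any siNC library, CFD lies lower, and SERPING1 has counts in 1 library.

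C1s is the protease that, once activated by C1r, cleaves C4 and C2. C1S (ENSG00000182326; hg38 chromosome 12, 6988259 to 7071032, plus strand) stood at 16.3, 16.4 and 16.4 CPM in siC1QBP replicates 1, 2 and 3 and at 11.9, 9.43 and 11.9 CPM in the siNC replicates. All siC1QBP libraries were therefore above all siNC libraries. The log2 fold change was 0.57 (SE 0.11; 95% interval 0.34 to 0.79; edgeR adjusted p = 0.00208), the largest rise among the members. These levels rest on 190 to 312 counts per library. C1S overlaps its neighbour EMG1 on the same strand, with 229 exon bases in common (3.54% of those of C1S), and EMG1 held 8981 counts over the 6 libraries, so the level of C1S is uncertain to the extent that reads there were assigned to either gene. The spread of the siC1QBP replicates, 0.348% of their mean, was smaller than the 5.81% that counting alone would give at this depth, so that the closeness of the 3 values is no measure of precision. The call held in each of 16 alternative analyses, with log2 fold changes of 0.46 to 0.62 and an edgeR, DESeq2 or limma adjusted p of at most 0.0195.

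C1r, which activates itself and then C1s, gave values that overlapped between the groups. C1R (ENSG00000159403; chromosome 12, 7080199 to 7092607, minus strand) stood at 17.2, 20.9 and 15.9 CPM in siC1QBP and at 14.4, 14.3 and 16.9 CPM in siNC libraries. Replicate 2 of siC1QBP was the highest and replicate 3 lay below the highest siNC library. The log2 fold change was 0.24 (SE 0.11; 95% interval 0.01 to 0.47; edgeR adjusted p = 0.162), which did not pass. Counts of C1S per count of C1R were 0.948, 0.782 and 1.03 in siC1QBP and 0.828, 0.657 and 0.701 in siNC libraries. This ratio does not depend on the scaling of the libraries, and it did not separate the groups (two-sided exact permutation p = 0.2, and 0.2 after adjustment over 3 ratios examined, which were chosen after seeing the values). The smallest p this permutation test allows is 0.1, so it could not have come under 0.05 whatever the values. The ratios overlapped between the groups, and a larger rise of C1S than of C1R was not shown.

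C1RL encodes a protease related to C1r that is made as a separate protein. C1RL (ENSG00000139178; chromosome 12, 7089587 to 7109273, minus strand) reached 34.6, 40.1 and 34.5 CPM in siC1QBP libraries, all above the siNC values of 27.4, 29.5 and 28.97 CPM. The log2 fold change was 0.34 (SE 0.08; 95% interval 0.18 to 0.50; edgeR adjusted p = 0.00560), and the call held in each of 16 alternatives (adjusted p up to 0.0380 in edgeR without 1 library). C1RL overlaps C1R on the same strand, with 672 exon bases in common, 13.4% of the exon bases of C1RL. It also shares 205 exon bases with C1RL-AS1 on the opposite strand. How reads in shared bases were assigned is not known, so the values of these 3 genes are uncertain to that extent.

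C1 inhibitor, the serpin that inactivates C1r and C1s, was close to absent from these libraries. SERPING1 (ENSG00000149131; chromosome 11, 57597387 to 57614853, plus strand) had 5 counts in siC1QBP replicate 2 (0.288 CPM) and 0 counts in the other 5 libraries. It did not pass the filter on low counts, and no fold change is given for it. In the same libraries the proteases that C1 inhibitor controls, C1R and C1S, each had at least 190 counts.

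**Figure D2:**
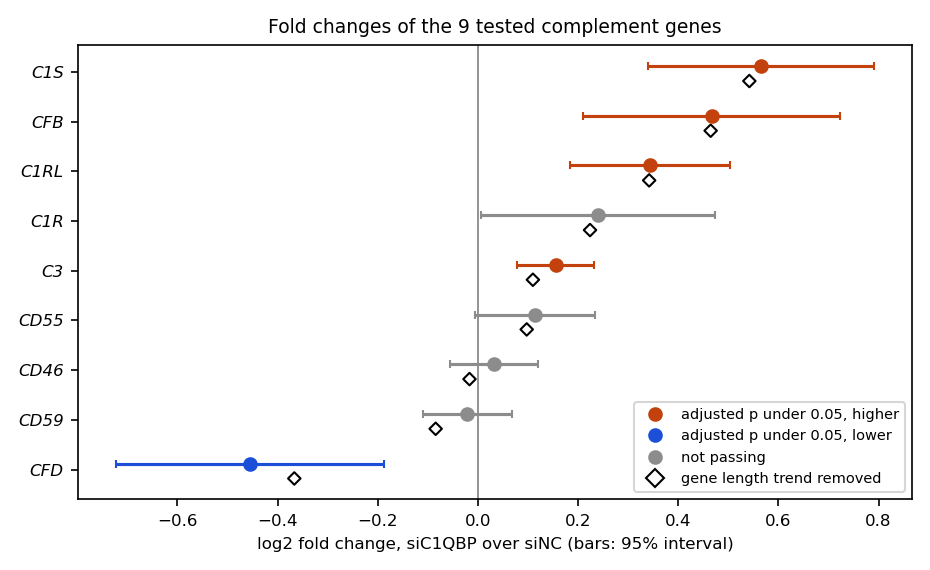
Log2 fold change (x axis, siC1QBP over siNC) of the 9 tested complement genes, with 95% intervals; filled points are from all 6 libraries, coloured by call, and open diamonds are the values after each library's trend with gene length was removed. C1S, CFB, C1RL and C3 lie above 0, CFD lies at -0.46, and the intervals of CD46, CD55 and CD59 include 0.

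C3 is the component on which all pathways converge, and its fragments tag targets for clearance. C3 (ENSG00000125730; chromosome 19, 6677704 to 6730562, minus strand) was one of the most abundant transcripts of these cells, ranked 39 among all genes by mean CPM in siNC libraries. It stood at 2008, 1942 and 1949 CPM in siC1QBP and at 1769, 1772 and 1757 CPM in siNC libraries. The groups were far apart relative to their spread, and no siC1QBP library came near a siNC library. The log2 fold change was modest, 0.15 (SE 0.04; 95% interval 0.08 to 0.23; edgeR adjusted p = 0.00830). In CPM, however, the mean difference of C3 was 200.3, while the absolute differences of the other 8 tested members added up to 42.0. C3 supplied 64.1% to 67.2% of the CPM of all 10 members in each library. Leaving out siNC replicate 2 or 3 ended the call of C3 (edgeR adjusted p = 0.0557 and 0.0644), at log2 fold changes of 0.16 and 0.15. Fold changes in this comparison followed gene length, and C3 is long (8328 exon bases): the 1500 tested genes nearest to it in length had a median log2 fold change of 0.04, and with the trend of each library removed C3 stood at 0.11 (edgeR adjusted p = 0.0467).

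Factor B supplies the protease of the alternative pathway's C3-splitting enzyme. CFB (ENSG00000243649; chromosome 6, 31945650 to 31952084, plus strand) was faint, at 11.0, 11.4 and 11.1 CPM in siC1QBP and at 6.86, 8.34 and 8.99 CPM in siNC libraries, from 125 to 211 counts. The lowest siC1QBP library was above the highest siNC library. Its log2 fold change was 0.47 (SE 0.12; 95% interval 0.21 to 0.72; edgeR adjusted p = 0.0162). The edgeR adjusted p rose to 0.0501 without siC1QBP replicate 2, to 0.0674 without siNC replicate 1 and to 0.0510 without siNC replicate 2, which ended the call, and without siNC replicate 1 the log2 fold change was 0.36. An annotated gene that joins CFB with its neighbour C2, AL645922.1, covers 45.0% of the exon bases of CFB and was listed at 0 counts in every library. How reads in those bases were assigned is not known, and the level of CFB is uncertain to that extent.

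Factor D, the protease that activates factor B, went the other way. CFD (ENSG00000197766; chromosome 19, 859643 to 863630, plus strand) stood at 6.06, 7.27 and 7.35 CPM in siC1QBP and at 9.28, 9.97 and 9.10 CPM in siNC libraries. All siC1QBP libraries lay below all siNC libraries, with replicate 1 the lowest. The log2 fold change was -0.46 (SE 0.13; 95% interval -0.72 to -0.19; edgeR adjusted p = 0.0228). Each library held only 109 to 201 counts of CFD. The call ended when siC1QBP replicate 1 was left out (log2 fold change -0.37; edgeR adjusted p = 0.0631), likewise siNC replicate 2 (0.0985) or 3 (0.0529), and with DESeq2 (adjusted p = 0.0559). CFD is the shortest member, with 1222 exon bases, and among the 1500 tested genes nearest in length 13.6% were lower and 2.87% higher. With the length trend removed, the log2 fold change of CFD was -0.37 (edgeR adjusted p = 0.0492).

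Within a library, the balance of factor B to factor D needs no scaling for library size. The ratio does keep any trend of a library with gene length, since CFB has 4997 exon bases and CFD 1222. Counts of CFB per count of CFD were 1.82, 1.56 and 1.51 in siC1QBP and 0.740, 0.836 and 0.988 in siNC libraries. The mean went from 0.854 ± 0.125 to 1.63 ± 0.165 (SD, n = 3 each), with an exact two-sided permutation p of 0.1, the smallest possible, and 0.2 adjusted over the 3 ratios. CFB had more counts than CFD in each siC1QBP library and fewer in each siNC library. Since the genes differ in length, this order is of counts and not of molecules.

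CD46, a cofactor for the cleavage of C3b and C4b on the cell surface, was at 297, 314 and 315 CPM in siC1QBP and at 304, 298 and 304 CPM in siNC libraries (ENSG00000117335; chromosome 1, 207752057 to 207795513, plus strand). The groups overlapped, and the log2 fold change was 0.03 (SE 0.04; 95% interval -0.06 to 0.12; edgeR adjusted p = 0.666). CD59, which blocks assembly of the membrane attack complex, was at 518, 502 and 502 CPM in siC1QBP and at 535, 493 and 516 CPM in siNC libraries (ENSG00000085063; chromosome 11, 33703010 to 33736491, minus strand). Its log2 fold change was -0.02 (SE 0.04; 95% interval -0.11 to 0.07; edgeR adjusted p = 0.786). As folds, the intervals ran from 0.962 to 1.09 for CD46 and from 0.927 to 1.048 for CD59, so smaller changes in either direction remain possible. With the length trend removed CD46 stood at -0.02 and CD59 at -0.08 (edgeR adjusted p = 0.833 and 0.159).

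CD55, which speeds the decay of the C3-splitting enzymes, was higher in all siC1QBP libraries but by little. It stood at 80.0, 81.5 and 86.3 CPM in siC1QBP and at 79.7, 77.9 and 71.5 CPM in siNC libraries (ENSG00000196352; chromosome 1, 207321376 to 207386804, plus strand). The lowest siC1QBP and the highest siNC library nearly touched. The log2 fold change of 0.11 did not pass (SE 0.06; 95% interval -0.01 to 0.23; edgeR adjusted p = 0.196), and it did not pass in any of 16 alternatives. Counts of CD55 per count of CD59 were 0.154, 0.162 and 0.172 in siC1QBP and 0.149, 0.158 and 0.138 in siNC libraries, which overlapped (two-sided exact permutation p = 0.2).

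**Figure D3:**
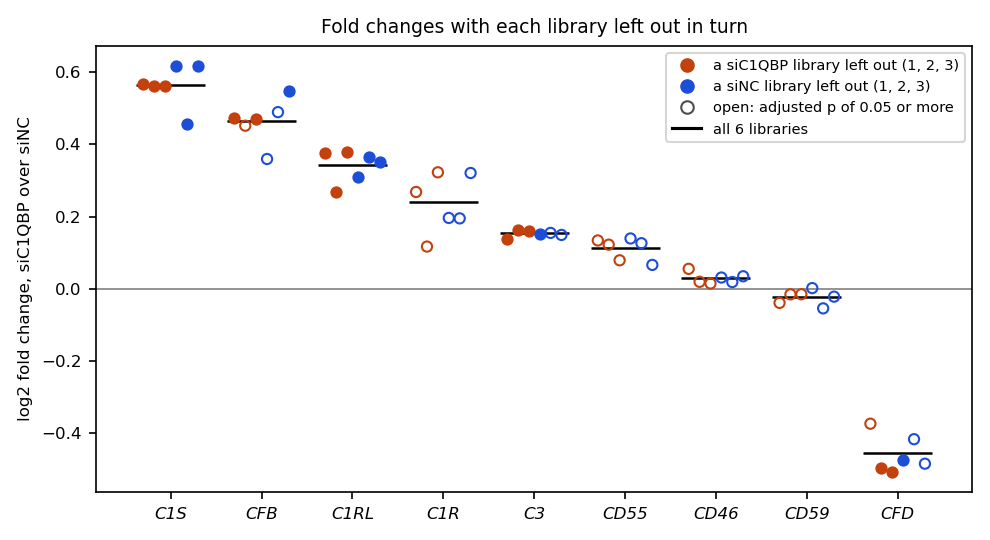
Log2 fold change (y axis, siC1QBP over siNC) of the 9 tested complement genes with each library left out in turn: orange points leave out siC1QBP replicate 1, 2 or 3, blue points siNC replicate 1, 2 or 3, open points have an edgeR adjusted p of 0.05 or more, and the line is the value from all 6 libraries. C1S and C1RL kept filled points throughout, while C3 had 2 open points and CFB and CFD 3 each.

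On a scale per kilobase of exon (CPM per kilobase, written RPKM), C3 led by far in both groups. The length used was that of all annotated exons of a gene, which can differ from that of the transcripts expressed. Some members also share exon bases with other genes, so the order between genes is approximate. In siNC libraries its mean level was 212 RPKM, followed by the surface regulators CD59 (49.7 RPKM), CD46 (34.7 RPKM) and CD55 (12.9 RPKM). CFD (7.73 RPKM), C1RL (5.71 RPKM), C1R (2.59 RPKM), C1S (1.71 RPKM) and CFB (1.61 RPKM) came next. Neighbours in this order did not overlap between libraries, with the exception of C1S (1.46 to 1.84 RPKM) and CFB (1.37 to 1.80 RPKM). In siC1QBP libraries the order was the same apart from CFD and C1RL, which changed places: C1RL stood at 6.88 to 7.997 RPKM and CFD at 4.96 to 6.01 RPKM. On this scale the 3 membrane regulators thus ranked above every protease and factor measured and below C3.

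C1S, C1R and C1RL lie side by side on chromosome 12, and the genes next to C1RL rose as well. All tested genes within 50 kb of a member were examined, a rule added after the values were seen. RBP5, a cytosolic retinol-binding protein gene, starts 19.7 kb from C1RL on the same strand. It stood at 11.8, 11.3 and 11.8 CPM in siC1QBP and at 6.31, 6.202 and 5.94 CPM in siNC libraries (log2 fold change 0.92, SE 0.12; edgeR adjusted p = 8.27e-05). The antisense gene C1RL-AS1 starts 1.2 kb inside C1RL. It stood at 29.6, 29.8 and 25.8 CPM in siC1QBP and at 16.7, 15.9 and 16.7 CPM in siNC libraries (log2 fold change 0.79, SE 0.08; edgeR adjusted p = 1.75e-05). Both calls held under every alternative that tested them, 16 for RBP5 and 15 for C1RL-AS1.

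Further along, CLSTN3, which encodes a calsyntenin of the cell membrane, rose from 96.8 to 104 CPM in siNC to 115 CPM in each siC1QBP library (log2 fold change 0.20, SE 0.05; edgeR adjusted p = 0.0103). The noncoding gene AC018653.3 also rose (0.59, SE 0.18; edgeR adjusted p = 0.0370). Leaving out siNC replicate 2 or 3 ended the call of CLSTN3 (edgeR adjusted p = 0.0843 and 0.0532). AC018653.3 was not called when siC1QBP replicate 2 (edgeR adjusted p = 0.117) or 3 (0.113) was left out, nor when siNC replicate 1 (0.134) or 2 (0.104) was, nor with DESeq2 (adjusted p = 0.0873). On the far side of C1S the direction differed: PHB2, a mitochondrial prohibitin gene, fell (-0.23, SE 0.05; edgeR adjusted p = 0.00278), from 404 to 431 CPM in siNC to 340 to 371 CPM in siC1QBP libraries. Of the 36 distinct tested neighbours of all 10 members, 5 rose and 4 fell, beside 6.47% higher and 7.84% lower over all tested genes. If the counting ignored strand, reads of C1RL and C1RL-AS1 in their shared bases could not be told apart.

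**Figure D4:**
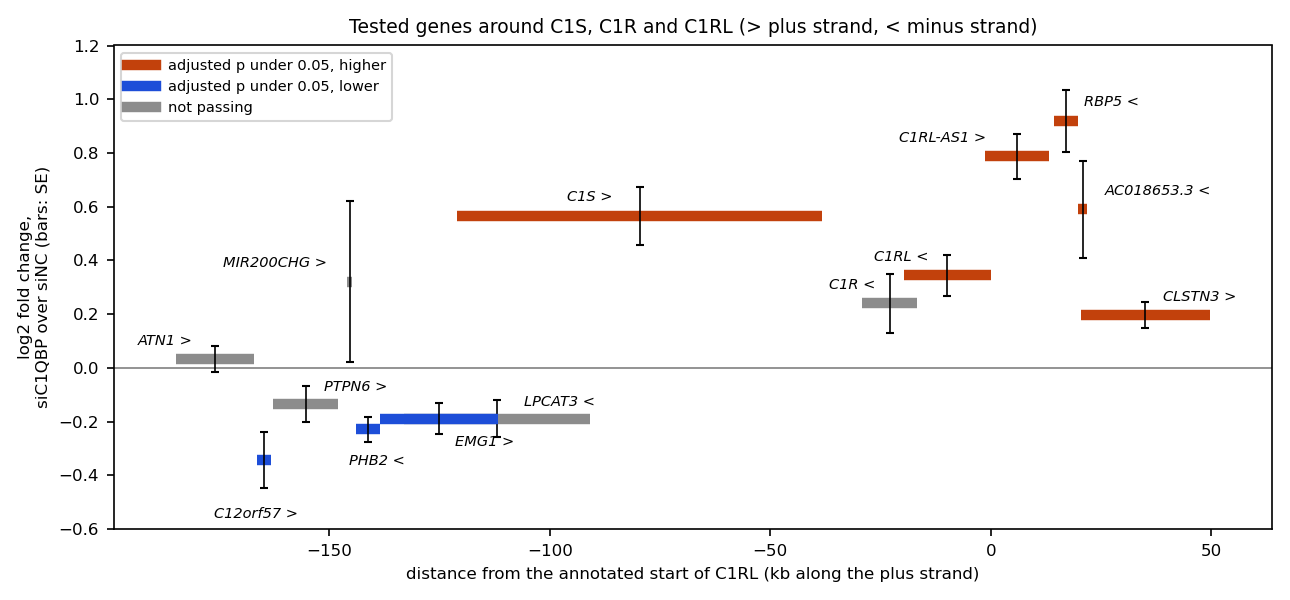
Log2 fold change (y axis, siC1QBP over siNC; vertical bars are SE) of the tested genes around C1S, C1R and C1RL, drawn as horizontal bars over each gene's extent in kb from the annotated start of C1RL (x axis). Ordered by left end, the 7 genes from C1S to CLSTN3 lie above 0, at 0.20 to 0.92. Of these, 6 passed the test, beside 6.47% higher over all tested genes, and this stretch was picked after the values were seen. On the left, EMG1, PHB2 and C12orf57 lie below 0 and passed. EMG1 and LPCAT3 (-0.19, edgeR adjusted p = 0.0743, not passing) overlap the extent of C1S.

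Outside the members, most of the complement system was at the limit of detection. A list of 53 other complement genes covered the proteins that start the classical and lectin pathways, further cascade components, other regulators, and receptors. Of these, 37 were too faint to be tested, and 17 had 0 counts in all 6 libraries. All 3 chains of C1q (C1QA, C1QB and C1QC) were among those with 0 counts, as were the terminal components C8A and C8B. Of the 16 tested genes, 1 rose, 2 fell and 13 did not pass, a share called of 18.8% beside 14.3% of all tested genes. MASP2, a protease of the lectin pathway, was at 0.404 to 1.33 CPM in siC1QBP and at 0.695 to 0.933 CPM in siNC libraries (log2 fold change 0.18; edgeR adjusted p = 0.820). C5, the source of the membrane attack complex, was at 1.84 to 2.08 and 1.87 to 2.78 CPM (-0.17; edgeR adjusted p = 0.709).

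The called genes of that list act as regulators or receptors. C4BPB, the beta chain of C4b-binding protein, fell from 37.7, 37.7 and 39.3 CPM in siNC to 29.9, 33.5 and 33.3 CPM in siC1QBP libraries (log2 fold change -0.24, SE 0.07; edgeR adjusted p = 0.0239). C4BPB was not called when siC1QBP replicate 1 (edgeR adjusted p = 0.0564), siNC replicate 2 (0.0709) or siNC replicate 3 (0.107) was left out. CALR, calreticulin, an endoplasmic reticulum chaperone that can also bind C1q, fell from 956, 995 and 1002 to 873, 872 and 863 CPM (-0.18, SE 0.04; edgeR adjusted p = 0.00446). LRP1, a large endocytic receptor, rose from 38.6, 36.4 and 34.4 to 47.2, 44.8 and 41.0 CPM (0.28, SE 0.07; edgeR adjusted p = 0.0128). Leaving out siNC replicate 2 or 3 ended the call of LRP1 (edgeR adjusted p = 0.0599 and 0.0847). With the length trend removed LRP1 stood at 0.16 (edgeR adjusted p = 0.106).

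CD55 and CD59 are held in the membrane by a glycosylphosphatidylinositol (GPI) anchor, so the genes that build and attach it were examined as a list of 29. Of 28 tested, 2 fell, 0 rose and 26 did not pass, with a median log2 fold change of -0.07; the share called was 7.14%, beside 14.3% of all tested genes. PIGF, which helps add ethanolamine phosphate to the anchor, went from 8.89, 8.63 and 7.68 to 6.28, 6.29 and 5.93 CPM (-0.45, SE 0.13; edgeR adjusted p = 0.0280). PIGH, part of the enzyme of the pathway's opening step, went from 32.1, 31.6 and 35.5 to 28.5, 27.2 and 28.1 CPM (-0.24, SE 0.07; edgeR adjusted p = 0.0331). Each value set gives siNC before siC1QBP libraries. PIGF was not called with DESeq2, nor when siC1QBP replicate 2, siC1QBP replicate 3, siNC replicate 1 or siNC replicate 2 was left out; the edgeR adjusted p was then at most 0.0964. PIGH lost its call in 8 of 16 alternatives: with replicate 2 or 3 of either group left out (edgeR adjusted p of at most 0.176), with DESeq2, under 2 other scalings, and with the length trend removed.

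Complement genes are known targets of interleukin-6, interleukin-1, tumour necrosis factor and interferon gamma signalling, and 23 genes of these pathways were examined. All 23 were tested: 4 rose, 1 fell and 18 did not pass, with a median log2 fold change of -0.00087; the share called was 21.7%, beside 14.3% of all tested genes. IL6R, the interleukin-6 receptor, was at 12.8, 11.0 and 12.1 CPM in siC1QBP and at 6.70, 8.48 and 7.08 CPM in siNC libraries (log2 fold change 0.68, SE 0.12; edgeR adjusted p = 0.00162). STAT3, the transcription factor that acts downstream of it, was at 249, 239 and 241 CPM against 209, 187 and 189 CPM (0.32, SE 0.05; edgeR adjusted p = 0.000417). IL1B, which encodes interleukin-1 beta, was at 131, 124 and 119 CPM against 99.7, 106 and 102 CPM (0.28, SE 0.05; edgeR adjusted p = 0.00175). The remaining riser was OSMR, the oncostatin M receptor, named after its value was seen (0.19, SE 0.05; edgeR adjusted p = 0.0122), which lost its call without siNC replicate 2 or 3 (up to 0.101). CEBPB, a transcription factor of the acute phase response, fell from 145, 158 and 150 CPM in siNC to 114, 112 and 126 CPM in siC1QBP libraries (-0.36, SE 0.05; edgeR adjusted p = 0.000279). For IL6R, STAT3, IL1B and CEBPB, the call held in each of 16 alternatives. Whether these changes bear on C3, CFB or C1S was not tested.

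In a list of 20 other acute phase genes, 5 were tested, of which 2 rose, beside 6.47% of all tested genes, and 3 did not pass. Those 3 had log2 fold changes below 0, the lowest being SAA1 at -0.24 (edgeR adjusted p = 0.0937), an acute phase apolipoprotein gene named after its value was seen. LCN2, the iron-scavenging lipocalin, stood at 516, 598 and 596 CPM in siC1QBP and at 478, 481 and 485 CPM in siNC libraries (log2 fold change 0.24, SE 0.05; edgeR adjusted p = 0.00418). SERPINA1, which encodes alpha-1 antitrypsin, stood at 534, 473 and 463 CPM against 431, 440 and 436 CPM (0.17, SE 0.05; edgeR adjusted p = 0.0296). Without siNC replicate 1, 2 or 3 the SERPINA1 call was lost (edgeR adjusted p up to 0.115). In both genes replicate 1 of siC1QBP stood away from the other siC1QBP replicates, lowest in LCN2 and highest in SERPINA1.

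**Figure D5:**
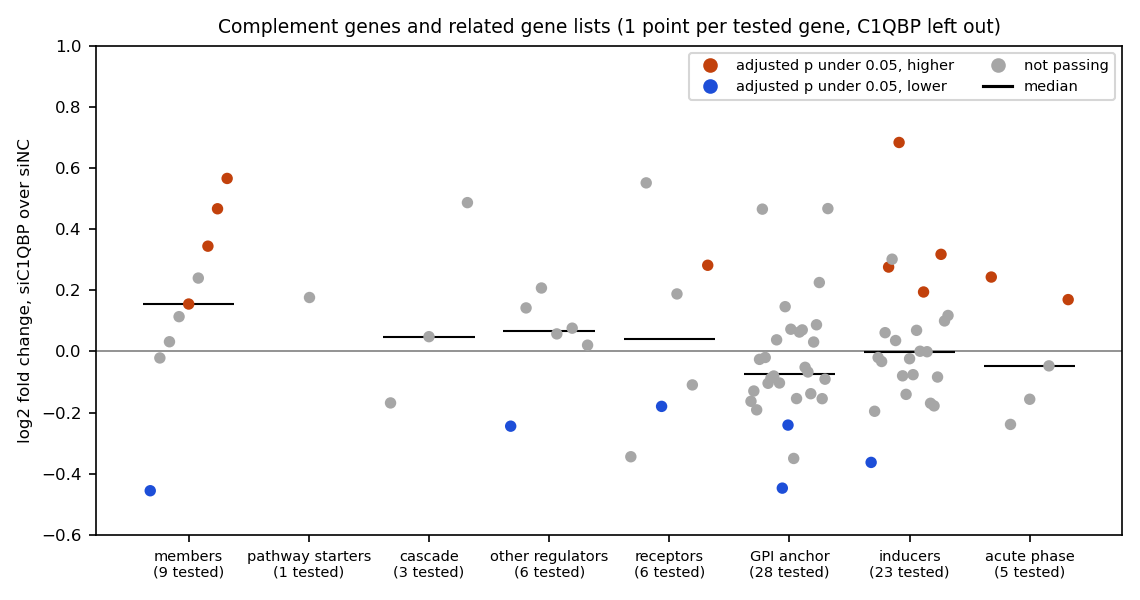
Log2 fold change (y axis, siC1QBP over siNC) of every tested gene in the 10 members and in 7 related lists (x axis), 1 point per gene, coloured by call, with the list median as a line; C1QBP is left out. Among the members 4 genes lie above 0 and passed; in the inducer list IL6R is the highest point, and in the GPI anchor list both called genes lie below 0.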

How the data were processed

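Gene expression was measured by RNA sequencing in 6 libraries of HuCCT1 cells, 3 siC1QBP and 3 siNC. Per the labels' protocols, the library kit was NEBNext Ultra Directional. The deposited values are unnormalized integer counts for each gene, as the authors made them. The submitters' processing notes name the build hg38; for aligner, counter and strand the answer is: not given in the sources used here. The bounds and exon lengths of all 10 members equal those of GENCODE release 29. Counts were tested with edgeR 4.0.16 in R 4.3.3 (quasi-likelihood test, TMM scaling, filterByExpr, treatment as the only term), with Benjamini-Hochberg adjustment over 15530 genes and a threshold of 0.05; the fit was tested on simulated data. The SE is the log2 fold change over the root of F, and intervals use the t distribution. CPM use TMM-scaled library sizes. Replicates were compared by chi-square over genes with at least 20 counts in a pair: 2.09 to 6.77 per degree of freedom within and 7.12 to 18.0 between groups, so no pair looked like 1 library. Alternatives were DESeq2 1.42.0, limma-voom (limma 3.58.1), other scalings and filters, protein-coding genes only, removal of each library's length trend (spline, 4 degrees of freedom), a replicate block, each library left out, and a threshold of 0.01. Members and gene lists were chosen with earlier results of these data known. Named genes are the members, C1QBP, and from each list up to 4 called genes with the smallest p or, with no call, the gene with the highest CPM; neighbours, OSMR, SAA1 and the cell type markers with values were named afterwards; the markers and SAA1 were not run through the alternatives. Promoter sequences are from RefSeq (GRCh38.p14); C1S, C3 and SERPING1 had no window there.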

Additional observations from a re-analysis of the deposited data

How the results depend on the processing

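With 1 library left out, the count of called members ranged from 2 to 5 and that of all called genes from 1105 to 2583. The lowest counts came without siNC replicate 2 (2 members, both higher; 1105 genes) and siNC replicate 3 (3 members; 1178 genes). At an adjusted p under 0.01, 3 members (C1S, C1RL and C3) and 1057 genes were called. Upper quartile scaling gave 1280 higher and 946 lower genes against 1005 and 1217 with TMM, with 4 members higher and 1 lower under both. CFD was not tested with a filter of at least 10 CPM in 3 libraries. Members near 0 changed sign: CD46 stood at -0.0168 with the length trend removed, and CD59 at 0.0057 with upper quartile scaling, 0.0037 with library size only, 0.00037 under the 10 CPM filter and between -0.0536 and 0.0025 with 1 library left out. MASP2 ranged from -0.24 to 0.51 and C5 from -0.274 to 0.0466 with 1 library left out. The cause of these changes was not tested. C1S, CFB and CFD had at most 312 counts in any library. Counting error alone was 5.81% for C1S and 7.04% for CFB in siC1QBP libraries. In siNC libraries the spread was larger than counting error for C1S (12.9% against 6.93%) and CFB (13.5% against 8.09%). For CFD it was smaller (4.90% against 7.47%).

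Deviations of same-numbered libraries correlated weakly across genes, at 0.04, 0.03 and -0.01, and 4 of 6 libraries correlated best with their own number. With the replicate number as a block, 5 members and 3092 genes were called, against 5 and 2222 without it. These values do not settle whether the replicate numbers pair the libraries.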

Other observations

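Other genes near the members also passed the test. Beside C3, the adaptor gene SH2D3A fell from 121, 132 and 137 CPM in siNC to 111, 116 and 113 CPM in siC1QBP libraries (log2 fold change -0.20, SE 0.05; edgeR adjusted p = 0.0172), and was not called without siNC replicate 2 (0.0849) or 3 (0.120). The noncoding gene AC008760.2, which lies inside C3 on the same strand, stood at 9.45, 9.12 and 8.77 CPM in siC1QBP and 6.92, 6.996 and 7.24 CPM in siNC libraries (0.37, SE 0.12; edgeR adjusted p = 0.0482). That call was lost without any 1 of the 6 libraries (edgeR adjusted p 0.0821 to 0.128). AC008760.2 shares 0 exon bases with C3. How reads from within C3 were assigned is not known, so the level of AC008760.2 is uncertain to that extent. On the same strand as C1S and overlapping it, the ribosome biogenesis gene EMG1 fell from 82.7, 84.1 and 91.2 to 71.6, 75.9 and 78.8 CPM (-0.19, SE 0.06; edgeR adjusted p = 0.0335), and C12orf57 from 24.9, 30.5 and 27.1 to 17.9, 22.7 and 24.4 CPM (-0.34, SE 0.10; edgeR adjusted p = 0.0372). Both lost their calls in 7 of 16 alternatives, among them those without replicate 2 of siC1QBP, replicate 1 of siC1QBP, or replicate 2 or 3 of siNC (edgeR adjusted p of at most 0.194). No tested neighbour of CFB, CFD, CD46, CD59 or SERPING1 was called, and CD55 had no tested neighbour within 50 kb.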
